A study of Mus musculus with 10 samples.

Results

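Genes of the Z-disc and intercalated disc linked to mechanical strain were followed by RNA sequencing after deletion in the cardiac transcription factor gene Tbx5. The tissue was the mouse left atrium around the openings of the pulmonary veins (peri-pulmonary vein region). The 8 genes were chosen by name, with earlier results of these data known: Xirp1, Xirp2, Ankrd1, Ankrd23, Csrp3, Flnc, Nrap and Cryab. Each had 1 row among the 54532 genes of the count table. All 8 were among the 17752 genes that passed the filter on low counts. The CKO group held 6 mice of genotype R26creERT2/creERT2 with Tbx5 flox/flox, and the Ctrl group 4 mice of R26creERT2/creERT2 with Tbx5+/+. Both groups carried the same tamoxifen-inducible Cre from the ROSA26 locus, which is active in many cell types and not in cardiomyocytes alone. Both received tamoxifen for 3 days at 6 weeks of age, and samples followed 1 week later, at 7 weeks. RNA came from whole tissue with a short stub of vein, so it held several cell types. Summed counts per library ran from 8602794 to 10040808.

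The Z-disc anchors the thin filaments of neighbouring sarcomeres, and the intercalated disc joins cardiomyocytes end to end. Both carry force, and both hold proteins that are thought to sense it. Muscle LIM protein (Csrp3) and the muscle ankyrin repeat proteins (Ankrd1, also called CARP, and Ankrd23, also called DARP) can move between the sarcomere and the nucleus, and the ankyrin repeat proteins bind the spring region of titin. Filamin C (Flnc) crosslinks actin at the Z-disc and the cell membrane, and the Xin proteins (Xirp1 and Xirp2) bind actin and filamin C at intercalated discs and at sites of sarcomere damage. Nrap anchors actin filaments at the intercalated disc and takes part in myofibril assembly, and αB-crystallin (Cryab) is a small heat shock protein that protects desmin, titin and filamin.

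Start-site sequences are shown for the genes whose windows held a match to the T-box motif, together with those of Ankrd23, which has a pair of start sites that recur in the transcript data. They come from RefSeq (GRCm38.p6), run from 250 bases before to 50 bases after the start, 300 bases in all, and are written 5′ to 3′ on the strand of the gene. Capitals mark matches to the motifs searched on both strands. The T-box motif was searched as GGTGTGA and the TEAD motif as CATTCC. Binding letters of GATA factors were searched as AGATAA. The core promoter box was searched as TATAAA, and MEF2 sites and the CArG box of SRF by their usual consensus. Of the 8 genes 6 had windows, 9 in all; Xirp1 and Cryab had none in this table.
Ankrd1, chr19:36119795-36120094, minus strand: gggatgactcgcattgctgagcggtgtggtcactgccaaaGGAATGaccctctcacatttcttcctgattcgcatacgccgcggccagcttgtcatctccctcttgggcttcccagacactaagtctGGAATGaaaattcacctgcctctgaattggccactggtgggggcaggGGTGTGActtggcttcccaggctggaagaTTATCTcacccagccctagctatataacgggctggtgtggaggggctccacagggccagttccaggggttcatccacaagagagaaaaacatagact
Ankrd23, upstream start, chr1:36536507-36536806, minus strand: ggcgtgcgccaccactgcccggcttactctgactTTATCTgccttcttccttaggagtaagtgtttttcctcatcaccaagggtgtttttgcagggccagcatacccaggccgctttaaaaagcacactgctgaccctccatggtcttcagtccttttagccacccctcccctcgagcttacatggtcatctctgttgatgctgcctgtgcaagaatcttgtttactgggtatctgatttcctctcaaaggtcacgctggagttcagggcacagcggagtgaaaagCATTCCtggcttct
Ankrd23, downstream start, chr1:36535690-36535989, minus strand: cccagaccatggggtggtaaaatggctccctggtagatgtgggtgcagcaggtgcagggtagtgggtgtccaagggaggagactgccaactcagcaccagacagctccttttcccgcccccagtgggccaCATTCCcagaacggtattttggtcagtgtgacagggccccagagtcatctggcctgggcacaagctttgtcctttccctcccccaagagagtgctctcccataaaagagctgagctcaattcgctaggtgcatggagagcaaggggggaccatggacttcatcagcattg
Xirp2, chr2:67445752-67446051, plus strand: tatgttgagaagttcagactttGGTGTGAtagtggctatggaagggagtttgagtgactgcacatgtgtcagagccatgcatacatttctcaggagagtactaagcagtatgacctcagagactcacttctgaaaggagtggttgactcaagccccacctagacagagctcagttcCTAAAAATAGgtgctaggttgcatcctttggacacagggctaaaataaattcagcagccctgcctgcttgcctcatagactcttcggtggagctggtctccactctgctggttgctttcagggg

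The Ankrd1 window held the T-box letters 76 to 70 bases before the start, TEAD letters at 210 to 205 and at 123 to 118 bases before it, and GATA letters at 47 to 42 bases before it. The Xirp2 window held the T-box letters 228 to 222 bases before the start and a MEF2 match 74 to 65 bases before it. At Ankrd23 the upstream window held GATA letters 216 to 211 bases before its start and TEAD letters 36 to 41 bases after it, and the downstream window held TEAD letters 120 to 115 bases before its start. In Flnc 1 TEAD match was shared by both of its overlapping windows, and the windows of Csrp3 and Nrap held none of the 6 motifs. No printed match overlapped another. Of the 9 windows, 2 held T-box letters, 5 TEAD, 2 GATA, 1 MEF2, 0 the CArG box and 0 TATAAA. Over all 32851 windows of the same length, the T-box letters were present in 3.98%, TEAD in 14.7% and GATA in 11.2%. MEF2 was present in 3.19%, the CArG box in 1.63% and TATAAA in 13.6%. The matches describe sequence only, and their excess over these shares was not tested.

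Before the results, the labels were checked at Tbx5. Exon 3 of its main transcript (ENSMUST00000018407, chr5:119838696-119838790) is flanked by loxP sites in this allele. Its coverage relative to the library's median exon was 0.310, 0.535, 0.482, 0.594, 0.175 and 0.618 in CKO libraries 1 to 6, against 1.21, 1.70, 0.903 and 0.988 in Ctrl libraries 1 to 4 (exact two-sided permutation p = 0.00952, the smallest that 210 relabellings allow). Summed over the whole gene, Tbx5 was at 283, 356, 425, 190, 167 and 189 CPM (counts per 1000000, scaled by TMM) in CKO libraries and at 155, 159, 89.6 and 132 CPM in Ctrl libraries, a log2 fold change of 1.00 (SE 0.29). Every CKO library lay above every Ctrl library, though the edgeR adjusted p was 0.101. The exon 3 value is relative to the other exons of Tbx5, so it does not give the absolute level of transcripts with exon 3. Whether that level was lower in CKO was not tested. CKO 4 and Ctrl 3 held transcripts of airway epithelium (Scgb1a1 at 1452 CPM in CKO 4 and 862 CPM in Ctrl 3, at most 42.0 CPM elsewhere), and results that rest on them are also given without both.

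Of the 8 genes 5 rose in CKO and 0 fell by edgeR's quasi-likelihood test, adjusted over all 17752 genes with a threshold of 0.05. Xirp1, Ankrd1, Ankrd23, Csrp3 and Nrap rose, by 1.70- to 3.14-fold, while Xirp2, Flnc and Cryab did not pass. Over all tested genes, 1.54% were higher and 1.26% lower in CKO by the same rule (2.8% in either direction). The median log2 fold change was 0.79 over the 8 genes and -0.03 over all genes tested. Values over all genes are given here for scale only, since the 8 genes were chosen with earlier results of these data known. Every CKO library lay above every Ctrl library for the same 5 genes, an arrangement that 3.03% of all genes showed. Together the 8 genes made up 0.761% to 1.14% of all counts in CKO libraries, against 0.455% to 0.608% in Ctrl libraries. That sum weighs abundant genes most: Ankrd1 held the most counts of the 8 in every CKO library. It had 26141 to 60237 counts in CKO libraries and 9460 to 23376 in Ctrl libraries. Limma on log2(TPM + 1), a scale that divides by length, called 1 of the 8, Xirp1. That fit called 326 of 19412 genes, 148 higher and 178 lower, and the median of all genes was -0.16. In whole tissue, more cells of a type and more RNA per cell cannot be told apart.

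**Figure D1:**
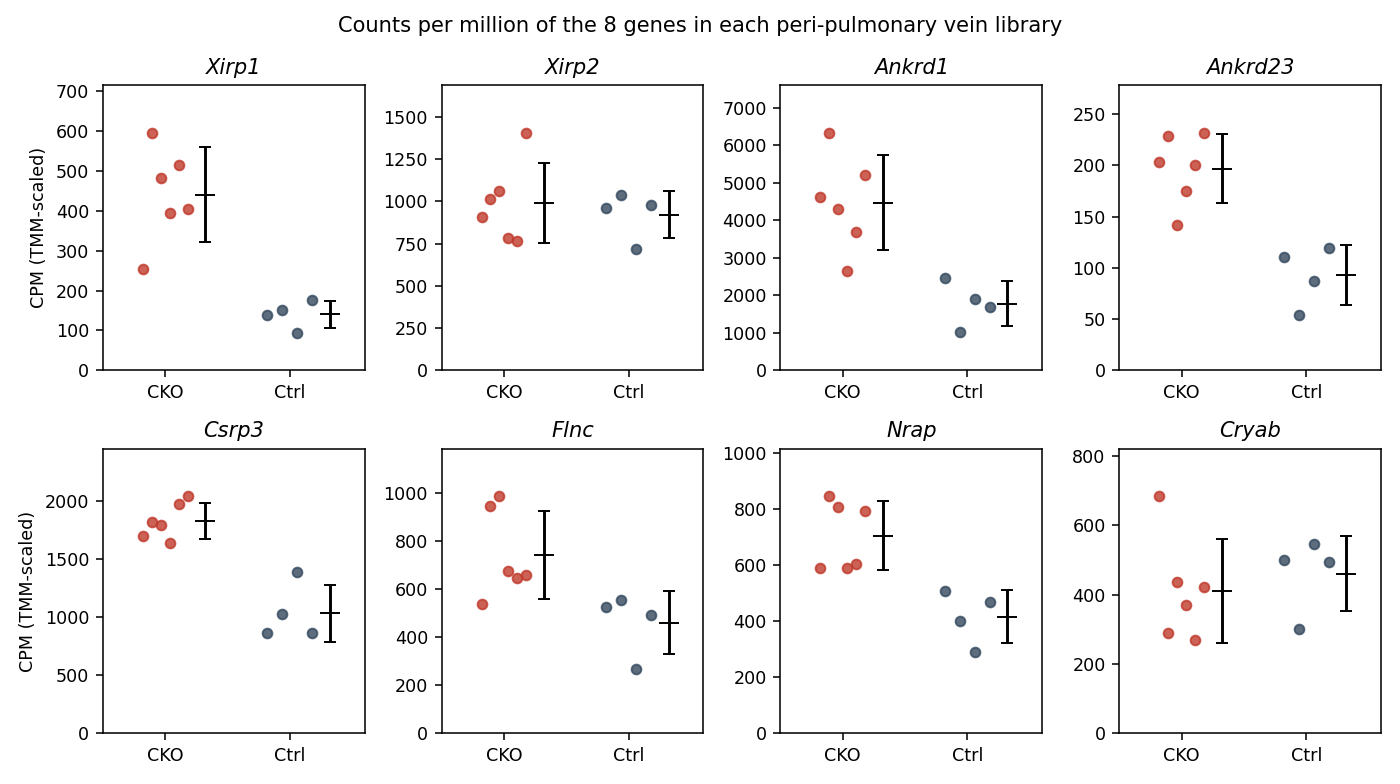
CPM (TMM-scaled, axes from 0) of the 8 genes, with 1 point for each of the 6 CKO and 4 Ctrl libraries in order of replicate number; bars show mean ± SD. Every CKO point lies above every Ctrl point for Xirp1, Ankrd1, Ankrd23, Csrp3 and Nrap, whereas the groups overlap for Xirp2, Flnc and Cryab.

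The ankyrin repeat genes and the LIM protein gene, whose products shuttle between titin or the Z-disc and the nucleus, were all higher in CKO. Ankrd1 (ENSMUSG00000024803, chr19:36111965-36119844) ranged from 2642 to 6324 CPM in CKO libraries with a median of 4457 CPM, against 2469, 1034, 1909 and 1689 CPM in Ctrl libraries 1 to 4. Every CKO library exceeded the highest Ctrl library, although CKO 4 stood only just above Ctrl 1. It averaged 4459.5 ± 1264 CPM in CKO and 1775 ± 594 CPM in Ctrl (SD, n = 6 and 4), a log2 fold change of 1.33 (SE 0.28, edgeR adjusted p = 0.0284). Its window with T-box, TEAD and GATA letters is printed above. The Ankrd1 call was lost without CKO 1, CKO 2 or CKO 6 (edgeR adjusted p 0.0610, 0.0542 and 0.0591) and without Ctrl 2 or Ctrl 4 (0.0791 and 0.0919), with log2 fold changes between 1.15 and 1.53 over all 10 such fits.

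Ankrd23 (ENSMUSG00000067653, chr1:36530188-36536883), a muscle ankyrin repeat protein of the same family, ranged from 142 to 232 CPM in CKO libraries with a median of 202 CPM. In Ctrl libraries 1 to 4 it was at 111, 54.4, 87.1 and 119 CPM, all below the lowest CKO library. The means were 197 ± 34.0 CPM in CKO and 92.9 ± 29.0 CPM in Ctrl (SD, n = 6 and 4), with a log2 fold change of 1.08 (SE 0.22, edgeR adjusted p = 0.0239). Ctrl 2 was the lowest Ctrl library for both ankyrin repeat genes. The Ankrd23 call was lost without CKO 1, CKO 2 or Ctrl 1 (edgeR adjusted p 0.0516, 0.0510 and 0.0519) and without both libraries with airway transcripts (0.0564, with a log2 fold change of 1.11). The model gene Gm42417 overlaps Ankrd23 on the same strand, with a mean count of 106 per library, so part of the Ankrd23 reads may be shared with it.

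Csrp3 (ENSMUSG00000030470, chr7:48830398-48848033) had the narrowest spread of the 8 among CKO libraries relative to its mean, from 1642 to 2046 CPM with a median of 1811 CPM. Ctrl libraries 1 to 4 held 864, 1031, 1388 and 870 CPM. The CKO libraries all lay above Ctrl 3, the highest Ctrl library. The mean was 1832 ± 156 CPM in CKO and 1038 ± 246 CPM in Ctrl (SD, n = 6 and 4), a log2 fold change of 0.82 (SE 0.15, edgeR adjusted p = 0.0155). The Csrp3 call was lost without Ctrl 1, Ctrl 2 or Ctrl 4, with edgeR adjusted p of 0.0591, 0.0622 and 0.0568.

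The Xin pair did not move alike. Xirp1 (ENSMUSG00000079243, chr9:120013755-120023598), which encodes Xin, ranged from 253 to 595 CPM in CKO libraries with a median of 443 CPM, against 140, 151, 93.7 and 176 CPM in Ctrl libraries 1 to 4. CKO 1 was the lowest CKO library and still stood above all Ctrl libraries. The mean was 440.4 ± 118 CPM in CKO and 140.1 ± 34.4 CPM in Ctrl (SD, n = 6 and 4), with a log2 fold change of 1.65 (SE 0.24, edgeR adjusted p = 0.00559), and Xirp1 passed in all 10 fits that left out 1 library. Xirp1 lies within the span of Cx3cr1 on the same strand, a gene with a mean count of 63.4 per library.

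Xirp2 (ENSMUSG00000027022, chr2:67446002-67526614), which encodes the longer family member also called myomaxin, ranged from 767 to 1405 CPM in CKO libraries with a median of 959.6 CPM. Ctrl libraries 1 to 4 had 959, 1036, 715 and 979 CPM, within or below the range of CKO. The log2 fold change was 0.10 (SE 0.18, edgeR adjusted p = 0.814), from 989 ± 236 CPM in CKO and 922 ± 142 CPM in Ctrl (SD, n = 6 and 4). The sign turned without CKO 6, the highest library, to -0.03. The antisense model gene Gm13601 overlaps Xirp2, with a mean count of 41.4.

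Within each library the log2 ratio of Xirp1 to Xirp2 CPM was -1.18 ± 0.53 in CKO and -2.74 ± 0.19 in Ctrl (SD, n = 6 and 4). The ratio ran from -1.84 to -0.57 in CKO libraries and from -2.93 to -2.48 in Ctrl libraries, with no overlap. The difference, CKO minus Ctrl, was 1.56 (exact two-sided permutation p = 0.00952, the smallest that 210 relabellings allow). This ratio was chosen after the values of both genes had been seen, so its p adds no evidence beyond those values.

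Of the actin anchors, Nrap passed the test and Flnc did not. Nrap (ENSMUSG00000049134, chr19:56320035-56390037) ranged from 590 to 847 CPM in CKO libraries with a median of 699.6 CPM, against 508, 400, 291 and 468 CPM in Ctrl libraries 1 to 4. CKO 1, CKO 4 and CKO 5 were the lower 3 of the CKO libraries and still lay above Ctrl 1, the highest Ctrl library. The mean was 706 ± 122 CPM in CKO and 416 ± 95.2 CPM in Ctrl (SD, n = 6 and 4), with a log2 fold change of 0.76 (SE 0.18, edgeR adjusted p = 0.0480). Nrap is at the edge of the threshold: it passed in 1 of 10 fits that left out 1 library, the one without CKO 4 (edgeR adjusted p 0.0483), and the others gave 0.0565 to 0.142.

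Flnc (ENSMUSG00000068699, chr6:29433256-29461883) ranged from 537 to 986 CPM in CKO libraries with a median of 666 CPM. In Ctrl libraries 1 to 4 it was at 527, 555, 267 and 492.7 CPM. CKO 1 fell below Ctrl 2, so the groups overlapped by that pair. The mean was 741 ± 181 CPM in CKO and 460.4 ± 132 CPM in Ctrl (SD, n = 6 and 4), and the log2 fold change was 0.69 (SE 0.23, edgeR adjusted p = 0.163). DESeq2 gave 0.71 with an adjusted p of 0.0408. A p above the threshold does not show that Flnc was equal in the groups.

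The chaperone gene Cryab (ENSMUSG00000032060, chr9:50751325-50756636) ranged from 268 to 685 CPM in CKO libraries with a median of 396 CPM, against 499, 302, 547 and 495 CPM in Ctrl libraries 1 to 4. The highest and the lowest library of all 10 were both CKO. The mean was 412 ± 150.0 CPM in CKO and 461 ± 108 CPM in Ctrl (SD, n = 6 and 4), a log2 fold change of -0.16 (SE 0.26, edgeR adjusted p = 0.787). Cryab overlaps Hspb2 on the opposite strand, a gene with a mean count of 400, so reads at their shared end are uncertain.

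The libraries did not rank alike for all 8 genes. CKO 2 was the highest CKO library for Xirp1, Ankrd1 and Nrap, and CKO 6 for Xirp2, Ankrd23 and Csrp3. CKO 1 was the lowest for Xirp1, Flnc and Nrap but the highest for Cryab. Among Ctrl libraries, Ctrl 3 was the lowest for Xirp1, Xirp2, Flnc and Nrap, whose main transcripts are long. It was the highest for Csrp3 and Cryab, whose most abundant transcripts are short. Csrp3 also has a form of 2433 bases, with 30.0% of its TPM in CKO and 25.1% in Ctrl. Over all genes, log2 CPM in Ctrl 3 deviated from its group by a median of 0.10 for transcripts under 1500 bases and by -0.08 for those over 5000 bases. CKO 5 deviated further the same way (0.15 and -0.11), and it was the lowest CKO library for the short Cryab and the second highest for the long Xirp1. The part of transcript length in these ranks was not tested. With the trend by transcript length removed, an alternative chosen after seeing the data, the same number of the 8 genes passed, 5. There 544 of 17752 genes passed.

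**Figure D2:**
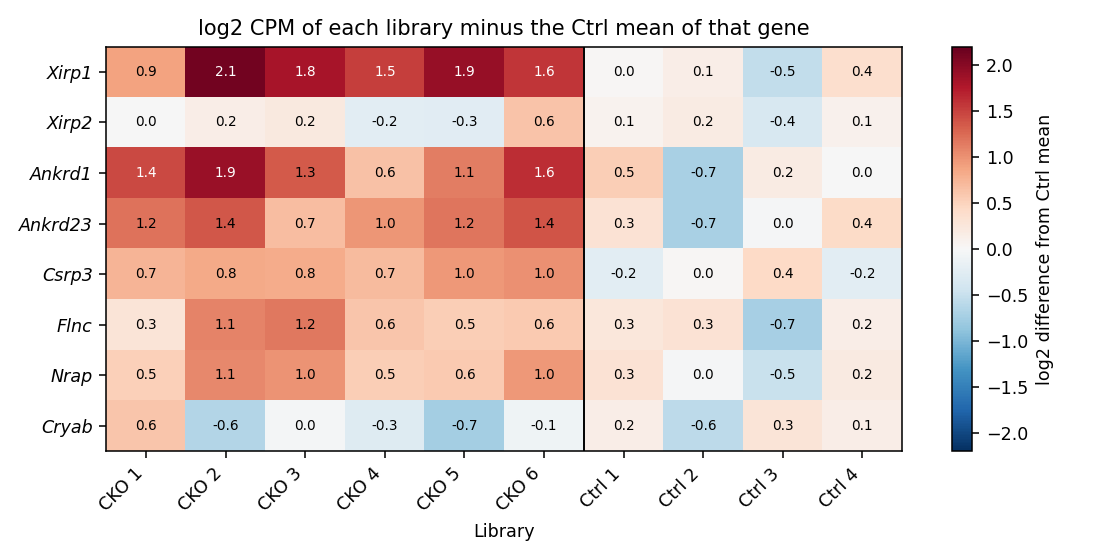
Heat map of log2 CPM of each gene (rows) in each library (columns, CKO left of Ctrl) minus the mean log2 CPM of the 4 Ctrl libraries; the number in each cell is that difference. Xirp1 is 0.9 to 2.1 above the Ctrl mean in all 6 CKO libraries, Csrp3 is 0.7 to 1.0 above it, and Xirp2 and Cryab take both signs in CKO.

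Levels of different genes were compared per length, as TPM (transcripts per 1000000). Ankrd1 was the most abundant of the 8, at 4733 ± 1453 TPM in CKO and 2071 ± 698 TPM in Ctrl (SD, n = 6 and 4), and by the mean of both groups it was 22nd of all 17752 genes tested. Csrp3 followed at 2615 ± 302 TPM in CKO and 1765 ± 518 TPM in Ctrl, and Cryab at 966 ± 427 TPM in CKO and 1337 ± 357 TPM in Ctrl. In both groups the ranges of Ankrd1 and Csrp3 overlapped; those of Csrp3 and Cryab overlapped in Ctrl and not in CKO.

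The other 5 genes were lower and close to each other. Nrap was at 258 ± 60.2 TPM in CKO and 166 ± 47.2 TPM in Ctrl. Xirp2 was at 156 ± 45.5 TPM in CKO and 160.1 ± 34.0 TPM in Ctrl. Ankrd23 was at 187 ± 39.9 TPM in CKO and 101 ± 38.86 TPM in Ctrl. Neighbours in this order, down to Flnc and Xirp1, had overlapping ranges in both groups. Flnc stood at 158 ± 43.5 TPM in CKO and 109 ± 34.4 TPM in Ctrl, and Xirp1 at 141 ± 37.7 TPM in CKO and 50.2 ± 15.8 TPM in Ctrl. Xirp1 was thus the least abundant of the 8 in Ctrl.

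Among single transcripts 0 of those of the 8 genes passed limma's test on log2(TPM + 0.5), where 0.157% of 50439 transcripts did. The transcript nearest to the threshold was Csrp3 ENSMUST00000208146, at 778 ± 129 TPM in CKO and 408 ± 83.9 TPM in Ctrl (SD, n = 6 and 4; log2 fold change 0.94, SE 0.17, limma adjusted p = 0.0834). For Xirp1 and Ankrd1 a single transcript carried all of the signal (limma adjusted p 0.101 and 0.207). For these genes the transcript test is thus a test of the whole gene on another scale and does not bear on isoforms. Ankrd23 transcripts begin either near the upstream start printed above or at the downstream one. The downstream start took 81.6%, 2.37%, 100%, 83.9%, 2.63% and 99.0% of Ankrd23 TPM in CKO libraries 1 to 6, against 1.72%, 0.835%, 71.3% and 1.45% in Ctrl libraries 1 to 4. Each library thus gave most of its signal to 1 of the 2 starts. The downstream start led in CKO 1, CKO 3, CKO 4 and CKO 6 and, among Ctrl libraries, in Ctrl 3 alone. Without CKO 4 and Ctrl 3, the libraries with airway transcripts, it led in CKO libraries only. This difference in start use was not tested.

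Flnc transcript ENSMUST00000065090 differs from the main form by 1 extra exon of 99 bases (chr6:29452799-29452897). It took 17.3% of Flnc TPM in CKO, with a range of 7.37% to 44.0%, and 7.07% in Ctrl, with a range of 0.381% to 14.9%, and the ranges overlapped. Nrap transcript ENSMUST00000167239 lacks 4 internal exons of the main form and holds 1 exon of 95 bases (chr19:56389390-56389484) that the main form lacks. Its outer exons also differ in an end. It was at 107 TPM in CKO 2 and 96.2 TPM in CKO 6, and at 5.59 TPM or less in every other library. These shares are StringTie's estimates of how reads divide between overlapping forms.

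Changes of the 8 genes were next set beside the cell types of the tissue. The gene lists used from here on were also chosen with earlier results of these data known. Of 15 cardiomyocyte genes 5 rose and 0 fell, with a median log2 fold change of 0.55; among them were the troponin genes Tnnc1 (1.12, edgeR adjusted p 0.0107) and Tnnt2 (0.73, 0.0136) and the M-band gene Myom1 (0.81, 0.0118). Tnnt2 was lost without Ctrl 2 (edgeR adjusted p 0.0549). Of the 15 genes 13 had a positive log2 fold change, while Ryr2 and Atp2a2 stood at -0.89 and -0.61 and did not pass. DESeq2 called 7 of the 15 higher and 1 lower. The summed level of the 15 was 47120 to 72786 CPM in CKO and 38328 to 60508 CPM in Ctrl. Scaling every library to these genes moved the median of all genes to -0.51. It left 2 of the 8 genes past the threshold, Xirp1 at 1.16 and Ankrd1 at 0.79, beside 176 higher and 6708 lower of all 17752 genes. Ankrd23, Csrp3 and Nrap then stood at 0.57, 0.33 and 0.26 (edgeR adjusted p 0.0686, 0.146 and 0.201), each still above that median of all genes, and Xirp2 turned to -0.40. With TMM and without CKO 4 and Ctrl 3, the libraries with airway transcripts, 3 passed: Xirp1, Ankrd1 and Csrp3. In that fit 509 of 17833 genes passed.

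Markers of other cell types were summed in the same libraries. The 8 fibroblast markers summed to 8241 to 15166 CPM in CKO and 4440 to 8196 CPM in Ctrl (0 called; median log2 fold change 0.58), the 8 endothelial markers to 2483 to 3847 CPM in CKO and 1643 to 2550 CPM in Ctrl (1 higher, Vwf), and the 8 macrophage markers to 1192 to 2378 CPM in CKO and 821 to 1742 CPM in Ctrl (2 higher, Cd68 and C1qb). Col3a1 was the largest part of the fibroblast sum (5305.5 ± 1629 CPM in CKO and 2944 ± 813 CPM in Ctrl). Vwf was the largest part of the endothelial sum (1368 ± 249 CPM in CKO and 667 ± 199 CPM in Ctrl). In each of these 2 lists 7 of 8 markers had a positive log2 fold change, with Pdgfra at -0.11 and Fabp4 at -0.17. All 8 macrophage markers had a positive log2 fold change, with a median of 0.81, slightly above the 0.79 of the 8 Z-disc and intercalated disc genes, and DESeq2 called 6 of them. The 8 smooth muscle markers summed to 2084 to 2872 CPM in CKO and 1533 to 2246 CPM in Ctrl, and 1 of them, Des, rose. Most of that sum was Des, which cardiomyocytes also express (1653 ± 327 CPM in CKO and 914 ± 82.8 CPM in Ctrl), while Myh11, Smtn and Lmod1 stood at -0.26, -0.19 and -0.38 and did not pass. Airway markers summed to 7.66 to 6259 CPM in CKO and 13.4 to 3865 CPM in Ctrl, with 0 of 5 tested called. Of skeletal muscle markers, Myh1, Myh2 and Tnnc2 were at 0 in every library, and 2 of 5 tested rose (Myh8 and Ckm, the second also a heart gene); the sum was 952 to 1371 CPM in CKO and 535 to 865 CPM in Ctrl. Ckm made up most of it (1120 ± 161 CPM in CKO and 702 ± 132 CPM in Ctrl). The other 3, Tnnt3, Tnni2 and Atp2a1, stood at -0.40, -0.96 and -2.22 without passing, and the median of the 5 was -0.40. Of fits that left out 1 library, Vwf passed in 6 of 10, Cd68 in 2, C1qb in 2, Ckm in 2 and Myh8 in 9. The part of these cell types in the results was not tested.

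**Figure D3:**
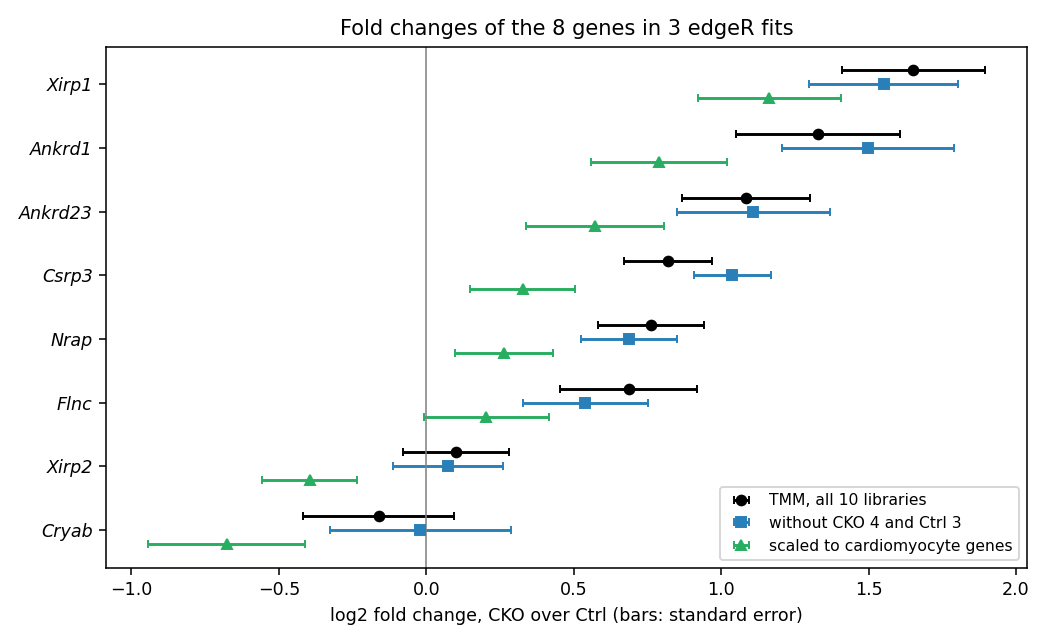
Log2 fold change of CKO over Ctrl for each of the 8 genes in 3 edgeR fits, with bars of 1 standard error: all 10 libraries with TMM (circles), without CKO 4 and Ctrl 3 (squares), and scaled to the cardiomyocyte genes (triangles). The last fit shifts all 8 values down, Xirp1 to 1.16 and Xirp2 to -0.40.

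Relatives of the 8 genes moved in both directions. Of 13 paralogues tested 3 rose and 1 fell, with a median log2 fold change of 0.25. Small heat shock genes related to Cryab rose in Hspb6, which encodes HSP20 (247 ± 40.5 CPM in CKO and 106 ± 16.8 CPM in Ctrl, log2 fold change 1.22, edgeR adjusted p 0.00220), and in Hspb1, which encodes HSP27 (162 ± 34.8 CPM in CKO and 94.5 ± 16.6 CPM in Ctrl, 0.78, adjusted p 0.0472). Hspb2, Hspb7 and Hspb8 stood at 0.18, 0.38 and 0.34 and did not pass. The Hspb1 call was lost in 9 of 10 fits without 1 library, holding only without CKO 4 (edgeR adjusted p up to 0.147), whereas Hspb6 passed in all 10.

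Ankrd2, the third muscle ankyrin repeat gene, passed at a very low level, 3.11 ± 2.30 CPM in CKO against at most 0.221 CPM in any Ctrl library (edgeR adjusted p 0.0301). Nebulin genes, related to Nrap, went the other way: Neb fell (62.4 ± 11.6 CPM in CKO and 111 ± 21.96 CPM in Ctrl, -0.83, adjusted p 0.0252), and Nebl stood at -0.50 (adjusted p 0.0766). Neb was not past the threshold without CKO 1, CKO 6, Ctrl 1, Ctrl 2 or Ctrl 4 (adjusted p up to 0.0953). Ankrd2 was tested in 6 such fits and passed in 2, and was lost without any 1 of the Ctrl libraries (up to 0.109). The third relative of that family, Lasp1, stood at 0.22. Flna, a paralogue of Flnc, stood at 0.25, and the Csrp3 paralogues Csrp1 and Csrp2 at 0.20 and 0.26, and none of these passed. Scaled to the cardiomyocyte genes, a fit in which the median of all genes was -0.51, Flna, Hspb7 and Hspb8 stood at -0.23, -0.13 and -0.17 and Csrp1, Csrp2, Hspb2 and Lasp1 at -0.28, -0.22, -0.31 and -0.24, negative but above that median.

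Other genes of the same structures were counted against the 2.8% of all genes that passed in either direction. Of 25 other Z-disc genes 2 rose and 1 fell, with a median of 0.35; DESeq2 called 8 higher and 1 lower, and scaling to the cardiomyocyte genes gave 1 higher and 9 lower. Pdlim3, which binds α-actinin, rose (log2 fold change 0.99, edgeR adjusted p 0.0124), as did the intermediate filament gene Des (0.85, 0.0157), and Cmya5, which encodes myospryn, fell (-1.74, 0.00134). The call of Des was lost without Ctrl 2 or Ctrl 4 (edgeR adjusted p up to 0.0593), and those of Pdlim3 and Cmya5 held without any 1 library. Of 22 other intercalated disc genes 1 rose and 1 fell, with a median of 0.04: the desmosomal Pkp2 rose (1.00, 0.000746) and the desmosomal cadherin gene Dsc2 fell (-1.17, 0.0110). In that list DESeq2 called 3 higher and 3 lower, and scaling to the cardiomyocyte genes gave 1 higher and 11 lower. Over all genes DESeq2 called 681 higher and 410 lower, and scaling to the cardiomyocyte genes gave 176 higher and 6708 lower. The 12 genes of filamin chaperoning and its autophagy route gave 0 calls and a median of -0.04, with Hspa8 at 0.36 and Sqstm1 at 0.41.

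Pathways often tied to stretch were counted in the same way, again in lists chosen with earlier results of these data known. Of 14 wall stress genes 13 were tested, 7 rose and 0 fell, with a median of 1.27; Acta1, the fetal skeletal actin gene, was at 115 ± 43.7 CPM in CKO and 4.34 ± 0.518 CPM in Ctrl (4.72, edgeR adjusted p 8.82e-05), and the natriuretic peptide gene Nppb (2.06, 0.00799) also rose. The other natriuretic peptide gene, Nppa, stood on the other side, at 1571.5 ± 666 CPM in CKO and 3445.5 ± 399.5 CPM in Ctrl (SD, n = 6 and 4; log2 fold change -1.13, edgeR adjusted p 0.0984). It did not pass, although its highest CKO library (2152.5 CPM) lay below its lowest Ctrl library (3014.5 CPM). With Nppa included, the list summed to 2592 to 4091 CPM in CKO and 3500 to 4534 CPM in Ctrl. DESeq2 called 8 of the list higher and 1 lower. Of 20 Hippo pathway target genes, to which Ankrd1 itself is usually counted, 2 rose, Cyr61 (1.86, 0.0358) and Nt5e (0.68, 0.0307), and the median was 0.16. Cyr61 passed in 3 of 10 fits that left out 1 library and Nt5e in 2 of 10 (edgeR adjusted p up to 0.112 and 0.0993). SRF and MRTF genes and targets gave 0 calls of 15 and a median of 0.32, with Actc1 at 0.55 and Tpm1 at 0.49. DESeq2 called 3 of these 15, and edgeR without CKO 4 and Ctrl 3 called 2. Scaled to the cardiomyocyte genes, the medians of the other Z-disc, other intercalated disc, Hippo and SRF lists turned to -0.15, -0.44, -0.33 and -0.15, all above the median of all genes in that fit (-0.51). Tpm1, Hspa8 and Sqstm1 then stood at -0.01, -0.14 and -0.09, also above that median. The list of filamin chaperoning and its autophagy route, which holds Hspa8 and Sqstm1, had a median of -0.54 in that fit, below it. Of its 12 genes 0 were called higher and 7 lower there, beside 6708 lower of all 17752 genes.

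**Figure D4:**
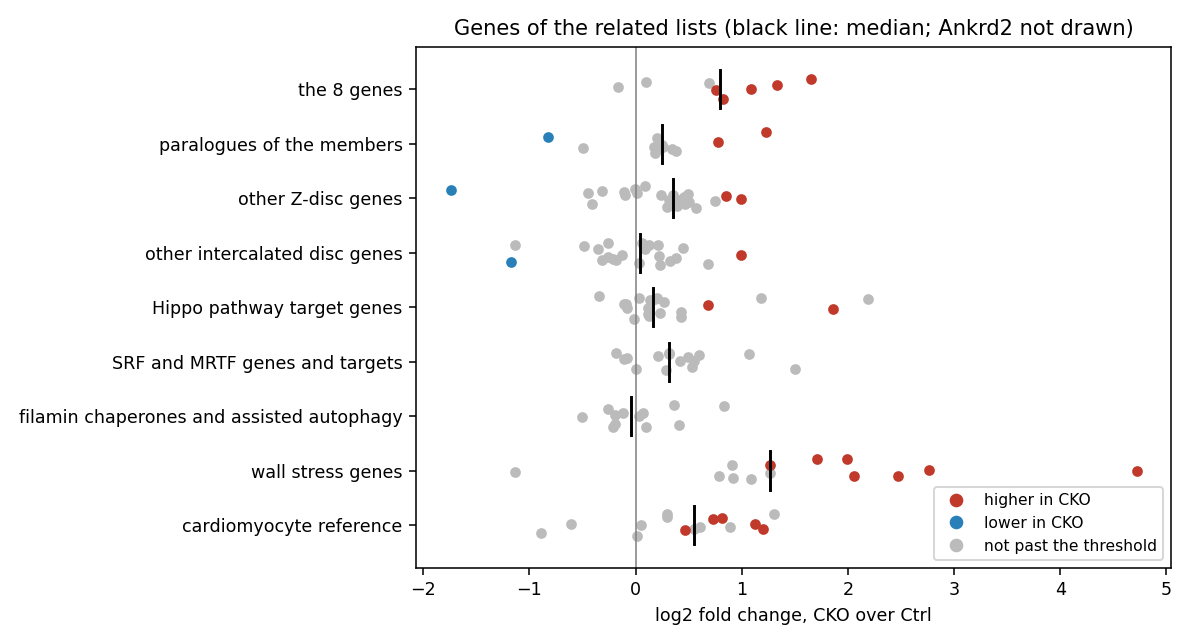
Log2 fold change of CKO over Ctrl (x axis) for each tested gene of the 8 and of 8 related lists (rows), red for genes higher in CKO, blue for genes lower in CKO and grey for genes not past the threshold; black lines are medians over the tested genes of a row, and Ankrd2, near 0 in Ctrl, is left out of the points only. The 8 genes have a median of 0.79, between those of the wall stress genes (1.27) and the other lists drawn, the highest of which is 0.55; macrophage (0.81) and fibroblast (0.58) markers are not drawn.

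Genes with the nearest profile over the 10 libraries were found by the root mean square difference of log2 CPM centred on each gene's mean, among 10427 genes with a mean of 10 CPM or more. For Xirp1 they were Otud1, Rcan1 and Adamts1 (0.35, 0.41 and 0.43). For Ankrd1 they were Mybpc2, Ankrd23 and Rrp12 (0.32, 0.33 and 0.34), and for Ankrd23 Mybpc2, Rrp12 and Cox6b1 (0.20, 0.21 and 0.27), so the ankyrin repeat genes shared Mybpc2 and Rrp12. For Nrap they were Myom1, Cdh2 and Filip1 (0.12, 0.14 and 0.16), and for Flnc Cdh2, Iba57 and Myom2 (0.15, 0.17 and 0.17), with Flnc 7th for Nrap and Nrap 8th for Flnc. For Csrp3 they were Gm5532, Bambi and Ctps (0.12, 0.16 and 0.17), for Xirp2 Slain2, Ankrd28 and Rab30 (0.10, 0.12 and 0.12), and for Cryab Vps51, Vtn and Mtcp1 (0.24, 0.26 and 0.28). Likeness over 10 libraries mixes the genotype difference with variation within groups.

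The authors' deposited table sets the 8 genes in the atrial appendage beside the peri-pulmonary vein region; its appendage values rest on libraries published before, and it gives no replicate spread. Of the 8 genes, 6 in the authors' deposited table had a false discovery rate under 0.05 in the appendage comparison of CKO and Ctrl, 5 with a positive and 1 with a negative log2 fold change. All genes of that table were called in 34.7% of cases there, 16.8% positive and 17.9% negative. In the authors' deposited table the peri-pulmonary vein comparison called 3 of the 8, all positive (Xirp1, Ankrd1 and Ankrd23), and 5.5% of all genes (3.03% positive). In the authors' deposited table the sign of the peri-pulmonary vein comparison matched CKO over Ctrl for all 8 genes, and the appendage column is named in the same way.

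In the authors' deposited table Xirp1 had a log2 fold change of 1.63 in the peri-pulmonary vein region and 1.84 in the appendage. In the same deposited table of the authors the vein region and appendage values were 1.31 (vein) and 1.89 (appendage) for Ankrd1 and 1.06 (vein) and 1.44 (appendage) for Ankrd23. For Csrp3 they were 0.80 (vein) and 0.76 (appendage) in the authors' deposited table, and for Flnc 0.67 (vein) and 0.73 (appendage), 2 genes that passed there in the appendage only; that difference was not tested. By the authors' deposited table Xirp2 stood at 0.08 in the peri-pulmonary vein region and at -1.88 in the appendage (false discovery rates 0.949 and 3.12e-11), and Nrap at 0.74 in the vein region and 0.06 in the appendage (0.0590 and 0.860). Cryab was at -0.18 in the vein region and -0.05 in the appendage in the authors' deposited table. Whether the effect of genotype differs between the regions was not tested, since the appendage libraries were not used here.

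In the authors' deposited table the contrast of peri-pulmonary vein and appendage, whose direction is not stated (its name puts the vein first), called 2 of the 8, Xirp2 (0.84, false discovery rate 0.00318) and Ankrd23 (0.88, 0.0147), both positive, while 12.2% of all genes were called (8.19% positive). The authors' comparisons may share libraries, so their values stand side by side only.

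**Figure D5:**
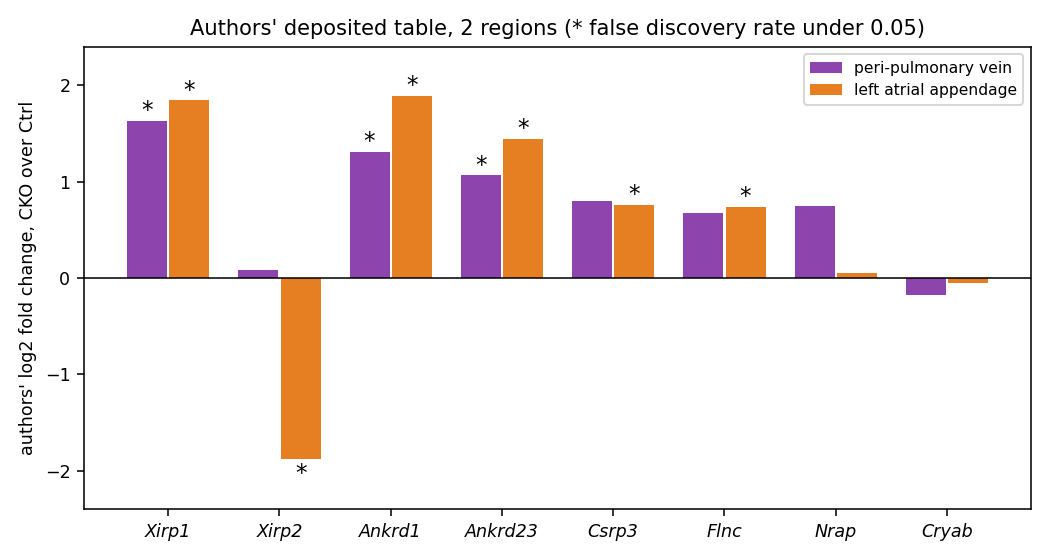
Log2 fold change of CKO over Ctrl from the authors' deposited table for the 8 genes, in the peri-pulmonary vein region (purple) and the left atrial appendage (orange); a star marks a false discovery rate under 0.05, and no replicate error is given in the table. Xirp2 is at 0.08 in the vein region and at -1.88 in the appendage, while Xirp1, Ankrd1 and Ankrd23 are above 1 in both.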

How the data were processed

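Peri-pulmonary vein tissue of 10 mice was sequenced, 6 CKO and 4 Ctrl, and groups were read from the sample labels. Per the submitters' processing notes, reads were aligned to mm10 with TopHat2 2.1.1, assigned to transcripts with StringTie 1.3.3 and tested by the authors in R 3.4.0 with limma 3.32.10 and edgeR 3.18.1. Per the file headers, StringTie ran with a stranded option, whereas the labels name a kit that does not mark strand; reads of overlapping genes are therefore uncertain. The labels also give polyA RNA in one field and removal of ribosomal RNA in another.

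The deposited gene table holds estimated counts that the authors derived from coverage: in all 54532 genes and 10 libraries each equalled the sum over transcripts of coverage times length over 50, rounded up. Coverage and TPM per transcript stand in the deposited transcript files, per the file headers. The authors' deposited table gives log2 fold changes and p-values with false discovery rates for 13646 genes. The count table also holds 10 columns of another study, not used here.

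Counts were tested with edgeR 4.0.16 in R 4.3.3 (filterByExpr, TMM, quasi-likelihood F test, genotype only, Benjamini-Hochberg over all 17752 genes, threshold 0.05); SE was taken as the absolute log2 fold change divided by √F. CPM use TMM-scaled library sizes. Transcripts with a mean TPM of 1 or more were tested with limma 3.58.1 on log2(TPM + 0.5), and scripts were tested on simulated data. Fold ratios are 2 to the power of edgeR's log2 fold change. The 23 alternatives included DESeq2 1.42.0, other scalings and filters, and leaving out each library. The 8 genes, the gene lists and the alternatives were chosen with earlier results of these data known. Genes were named by rule: the 8, Tbx5, detected paralogues, up to 3 called genes of each pathway list by adjusted p or else the 2 most abundant, and the 3 nearest profiles of each gene (2 genes that this rule names are not reported here); Nppa and markers of other cell types were named after their values were seen. Replicates differed by at least 10.1 in chi-square per degree of freedom, so none was a repeat deposit.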

Additional observations from a re-analysis of the deposited data

How the results depend on the processing

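Over 23 alternatives the log2 fold change of Xirp1 stayed past the threshold in 22 (1.16 to 1.78), of Csrp3 in 16 (0.33 to 1.04), of Ankrd1 in 15 (0.79 to 1.53), of Ankrd23 in 15 (0.57 to 1.23) and of Nrap in 6 (0.26 to 0.87), all positive. Flnc passed in 1, DESeq2, and Xirp2 and Cryab in 0. Against 5 of the 8 genes, 2 passed when libraries were scaled to cardiomyocyte genes, 3 without CKO 4 and Ctrl 3, and 1 with limma on log2(TPM + 1) or log2(TPM + 0.1). Against 497 genes in all, these gave 6884 genes (176 higher, 6708 lower), 509, 326 and 302; DESeq2 gave 1091 genes. The median log2 fold change of all genes was -0.51 under the cardiomyocyte scaling and -0.16 and -0.18 on log2(TPM + 1) and log2(TPM + 0.1); the cause of the other changes was not tested. Xist was at 1093 to 1371 CPM in CKO 1 to 3 and 1004 to 1202 CPM in Ctrl 1 and 2. It was at most 6.44 CPM in the others. With log2 Xist CPM as a covariate 5 of the 8 passed, beside 662 of 17752 genes. Leaving out 1 library gave 190 to 607 genes, 2 to 5 of the 8, and 0 to 1 of their transcripts (1 without CKO 1). The calls fell to 2 of 8 without CKO 1, CKO 2, Ctrl 1, Ctrl 2 or Ctrl 4, and to 3 without CKO 6. Xirp2 turned negative under cardiomyocyte scaling (-0.40), on log2(TPM + 1) (-0.0596), on log2(TPM + 0.1) (-0.0601) and without CKO 6 (-0.0269; range without 1 library -0.0269 to 0.169).

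Same-numbered libraries did not deviate together (correlations 0.0313, 0.0876, -0.319 and 0.0894), and 0 of 4 Ctrl libraries correlated best with the CKO library of its own number, so the numbers gave no sign of pairing mice. With the replicate block 37 genes passed and 0 of the 8, with Xirp1 at 1.59 (edgeR adjusted p 0.109). Leaving out 1 library gave 1 to 3 higher paralogues, 1 to 3 other Z-disc genes, 3 to 8 wall stress genes and 3 to 5 cardiomyocyte genes. The lowest count of any of the 8 genes in a library was 498, of Ankrd23 in Ctrl 2.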
